A study of Mus musculus with 8 samples.

Results

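The genes of the tumour necrosis factor (TNF) ligand and receptor superfamily named Tnfsf and Tnfrsf with a number held 222 of the 104981 open chromatin peaks measured in mouse cortical microglia. They were taken as every peak whose nearest gene, by distance to the transcription start site, has such a symbol. This gave 28 of 18207 genes, 11 ligands and 17 receptors, and all 28 matched a mouse gene in RefSeq by Entrez identifier. Of the 222 peaks, 26 lay at a promoter and 196, called distal here, lay elsewhere. Microglia, the resident macrophages of the brain, were sorted by flow cytometry from the cortex of mice at postnatal day 30, taken 4 hours after an injection into the cerebral ventricle on one side. One group of 4 mice, 2 female and 2 male, received interleukin-33 (IL-33), an alarm cytokine released by damaged tissue, and the other group of 4 mice, also 2 female and 2 male, received vehicle. No transgene or deleted gene is named in the labels, and vehicle injection, not an uninjected brain, is the baseline. Open chromatin was measured by ATAC-seq, in which a transposase cuts accessible DNA, and levels are tags in a peak scaled to 10000000 per library.

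TNF ligands are mostly membrane-bound trimers that cluster their receptors on neighbouring cells. Receptors with a death domain can start apoptosis, whereas receptors that bind TRAF adaptor proteins mainly switch on NF-kB and MAP kinase signalling, and decoy receptors bind ligand without such a signal. In the brain, TNF itself comes largely from microglia. Many of the other ligands are best known as signals from myeloid cells to T and B lymphocytes.

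RefSeq (GRCm38.p6) gave 28 windows around start sites for 24 of the 28 genes, each with 250 bases before the start and 50 after it. The 3 shown are those of the ligand whose promoter rose, of the ligand whose distal peaks departed most from its promoter, and of the receptor with most raised peaks. Capitals mark matches to the AP-1 letters TGANTCA and to the C/EBP letters TTGCNNAA on either strand, and each sequence reads 5′ to 3′ on the strand of its gene.
Tnfsf13b promoter (chr8:10006383-10006682, plus strand): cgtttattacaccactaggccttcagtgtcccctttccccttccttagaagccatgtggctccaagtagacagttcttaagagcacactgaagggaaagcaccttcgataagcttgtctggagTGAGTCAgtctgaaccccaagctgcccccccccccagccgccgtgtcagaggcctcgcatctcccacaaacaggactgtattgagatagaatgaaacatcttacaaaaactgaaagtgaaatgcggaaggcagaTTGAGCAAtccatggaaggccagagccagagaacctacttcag
Tnfsf14 promoter (chr17:57194132-57194431, minus strand): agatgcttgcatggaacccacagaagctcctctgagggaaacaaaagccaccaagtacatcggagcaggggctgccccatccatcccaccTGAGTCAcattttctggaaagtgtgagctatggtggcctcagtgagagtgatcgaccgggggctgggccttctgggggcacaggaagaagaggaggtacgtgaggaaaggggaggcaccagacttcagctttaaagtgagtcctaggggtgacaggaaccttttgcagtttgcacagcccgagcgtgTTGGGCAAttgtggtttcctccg
Tnfrsf1b promoter (chr4:145246821-145247120, minus strand): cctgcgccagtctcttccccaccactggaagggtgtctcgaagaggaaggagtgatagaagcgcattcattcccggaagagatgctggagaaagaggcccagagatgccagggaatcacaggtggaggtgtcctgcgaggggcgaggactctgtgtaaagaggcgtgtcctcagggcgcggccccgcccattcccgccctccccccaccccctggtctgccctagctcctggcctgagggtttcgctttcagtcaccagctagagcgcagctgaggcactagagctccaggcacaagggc
The Tnfsf13b window shared 205 bases with the promoter peak, the Tnfsf14 window 138 and the Tnfrsf1b window 179. In the Tnfsf13b window the AP-1 letters are bases 124 to 130 and the C/EBP letters bases 258 to 265. In the Tnfsf14 window they are bases 91 to 97 and 278 to 285. The Tnfrsf1b window held no match to any of the 5 motifs searched.

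Across all 28 windows of these genes, the AP-1 letters were in 6 (21.4%), against 7.81% of all 32851 promoter windows. Those 6 belong to Tnfrsf8, Tnfrsf9, Tnfsf13, Tnfsf14 and Tnfsf13b, the last with 2 overlapping windows that hold the same match. The C/EBP letters were in 3 windows (10.7%, against 10.8% of all), of Tnfrsf23, Tnfsf13b and Tnfsf14. The looser of 2 NF-kB patterns was in 2 windows, of Tnfrsf25 and Tnfrsf9, against 1.63% of all, and the stricter was in 0, against 0.411% of all. The ETS letters GAGGAAGT were in 1, of Tnfsf18, against 3.20% of all. A match is a description of these letters and not a bound site, and distal peaks were not searched.

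Libraries held 35842688 to 43857673 tags, of which 20.8% to 27.9% lay in peaks in vehicle and 14.2% to 31.3% in IL-33. The lowest shares were those of IL-33 library 2 (14.2%) and vehicle library 3 (20.8%). Of 10 microglial marker genes, 9 had a promoter peak, with summed levels of 562 to 809 tags in vehicle and 328 to 708 in IL-33. Promoter peaks were present for 1 of 5 neuronal, 2 of 5 astrocyte, 1 of 5 oligodendrocyte and 2 of 5 endothelial markers, and the highest sum of any of these 4 lists was 33.2 tags. For immune cells they were present for 2 of 5 T cell markers (Cd2 and Cd5, 48.3 to 62.4 tags in vehicle and 33.5 to 71.9 in IL-33), the B cell marker Cd79b (5.59 to 11.6 and 7.78 to 23.3), 2 of 5 neutrophil markers (22.0 to 28.5 and 8.72 to 28.8) and 0 of 5 monocyte markers. The T cell genes Cd3e, Cd3d and Cd3g and the B cell genes Cd79a and Ms4a1 had no promoter peak in the table. The part of other cells and of the share of tags in peaks in the values below was not tested, except where values without a library are given. In bulk libraries, a site open in fewer cells and a site less open in each cell cannot be told apart.

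After IL-33, single sites rose near some of the 28 genes, among them Tnfrsf1b, Tnfsf9, Tnfsf13b and Tnfsf18, while tags summed over whole genes did not pass the test. Of the 222 peaks, 195 were strong enough to be tested and 27 fell below the filter on low means. Among the 195, 23 rose (11.8%) and 9 fell (4.62%) in limma at an adjusted p of 0.05, where 8.53% of all peaks tested rose and 4.99% fell. The lowered share lay close to that of the whole table, and the raised share was not tested as a set. The median log2 change was -0.15 over the superfamily peaks and -0.14 over all peaks tested. Raised peaks had a median level of 3.28 tags in vehicle and 18.6 with IL-33. Lowered peaks had a median of 15.3 and 6.51 tags. These medians are a description, since the filter kept only peaks with a mean over all libraries of at least 4.3 tags. Of the 23 raised peaks, 12 had a vehicle mean below that value, so they were tested only because of their IL-33 values and had to differ. These include the leading raised peaks of Tnfrsf1b, Tnfrsf8, Tnfrsf11a, Tnfsf8, Tnfsf9, Tnfsf13b and Tnfsf14 described below, and the Tnfrsf25 promoter peak. Of the 9 lowered peaks, 2 had an IL-33 mean below 4.3 tags, so they were tested only because of their vehicle values. The leading lowered Tnfrsf11a peak is 1 of them. The p-values of these raised and lowered peaks and the gaps between their groups are to be read with this limit. Every IL-33 library lay on one side of every vehicle library at 30 of the 195 peaks (15.4%), against 13.9% of all peaks tested. The same held at 25 of the 32 called peaks, but these were picked for a difference, so that count adds no evidence. The matching share of all called peaks was not computed. With median-ratio scaling, which evens out the share of tags in peaks, 34 rose and 29 fell (15.2% and 10.8% of all peaks), including all 23 and all 9. Raised peaks numbered 18 to 31 when single libraries were left out, where 6306 to 13871 of all 94480 peaks tested rose. Lowered peaks were less stable, at 3, 5 and 4 without vehicle libraries 1, 2 and 4, 4 without IL-33 library 3 and 20 without IL-33 library 4. Of all peaks tested, 2500, 2472, 2730, 2511 and 7894 fell in these fits.

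By position, 21 of 170 distal peaks rose (12.4%, against 9.7% of all distal peaks tested) and 9 fell (5.29%, against 5.7%). Of 25 promoter peaks tested, 2 rose, those of Tnfsf13b and Tnfrsf25, against 2.45% of all, and 0 fell, against 1.28%. The raised peaks were 11 intronic, 9 intergenic, 1 exonic and 2 promoter peaks at a median of 12.3 kb from the start site, and the lowered were 2 intronic and 7 intergenic at 36.1 kb. By role, 9 of 60 ligand peaks rose and 4 fell, to be read against the 8.53% and 4.99% of all peaks tested. The roles were not compared with one another by a test. Among receptors that bind TRAF proteins without a death domain, 13 of 96 rose and 5 fell. Death domain receptors had 1 raised and 0 lowered of 34, and the mouse decoy receptors Tnfrsf22 and Tnfrsf23 had 0 called of 5. A total of 10 genes had a raised peak, 5 a lowered peak and 4 both, and 17 had neither. The share of all genes with such peaks was not computed, so these counts of genes are a description.

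The authors listed 49 of the 222 peaks under IL-33 alone, 22 under vehicle alone and 151 under both (22.1%, 9.91% and 68.0%, against 18.8%, 8.86% and 72.3% of the whole table). Of the 23 raised peaks, 13 were listed under IL-33 alone and 10 under both. Of the 9 lowered, 4 were listed under vehicle alone and 5 under both. These lists come from the same libraries and add no independent evidence of direction.

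**Figure D1:**
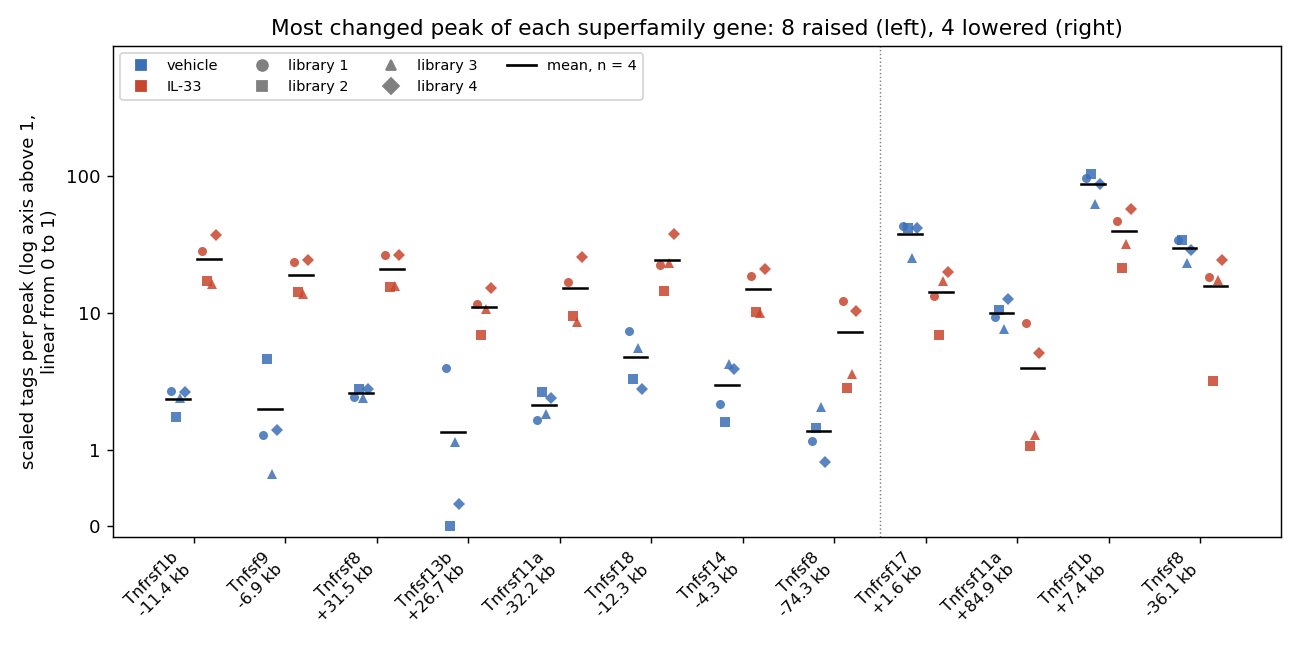
Scaled tags in each library (y axis, logarithmic above 1 and linear from 0 to 1) at the most changed peak of 8 genes with a raised peak and 4 genes with a lowered one (x axis, gene and distance from its start site); symbols mark libraries 1 to 4 and bars are means of 4. Every IL-33 library lies above every vehicle library at the 8 raised peaks, and the groups overlap at 2 of the 4 lowered peaks, Tnfrsf11a at 84.9 kb and Tnfsf8 at 36.1 kb. Raised peaks other than that of Tnfsf18 had vehicle means below the filter and were tested only because of their IL-33 values. The lowered Tnfrsf11a peak had an IL-33 mean below the filter and was tested only because of its vehicle values.

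Among ligands, Tnfsf13b, which encodes the B cell survival factor BAFF, was the one whose promoter sum rose. Its single promoter peak (chr8:10006478-10006754), which holds the AP-1 and C/EBP letters printed above, held 60.0, 66.3, 43.1 and 48.7 tags in vehicle libraries 1 to 4. It held 159, 69.0, 105 and 146 tags in IL-33 libraries 1 to 4. All IL-33 libraries were above all vehicle libraries, although IL-33 library 2, at 69.0, was only just above the highest vehicle library. The mean went from 54.5 ± 10.6 to 120 ± 40.8 tags (SD, n = 4 each), a log2 change of 1.02 (SE 0.26; limma on promoter sums, adjusted p = 0.0125). It was the 1 raised promoter sum of 16 tested, against 0.818% of all genes tested, and 0 fell, against 0.615%. When single libraries were left out the call was lost in 6 of 8 cases, with an adjusted p of up to 0.152 without vehicle library 4, and held without vehicle library 2 and without IL-33 library 2.

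A second Tnfsf13b peak, in the last intron 26.7 kb into the gene (chr8:10033160-10033535), was close to closed in vehicle. It held 3.97, 0, 1.14 and 0.28 tags in vehicle libraries and 11.6, 6.96, 10.7 and 15.3 in IL-33 libraries. The vehicle library at 0 had a floor of 0.396 tags, the worth of 3 reads. The groups did not overlap, and the log2 change was 2.51 (SE 0.34; adjusted p = 1.53e-11). An exonic peak 24.7 kb into the gene rose from 7.24 ± 3.24 to 15.5 ± 8.55 tags (adjusted p = 0.0473), with groups that overlapped. Summed over its 6 peaks, Tnfsf13b had the smallest p of any superfamily gene. The sum was 127, 112, 73.8 and 91.2 tags in vehicle and 253, 111, 164 and 250 in IL-33, so that IL-33 library 2 lay among the vehicle libraries. The log2 change of 0.87 (SE 0.28) missed the threshold (adjusted p = 0.0654), and without IL-33 library 2 it was 1.10 (adjusted p = 1.06e-06).

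Tnfsf9 encodes the ligand of the T cell costimulatory receptor Tnfrsf9. Its strongest change was at a peak 6.9 kb upstream (chr17:57098351-57098619), in an intron of the non-coding RNA gene Gm11110, which overlaps the Tnfsf9 start. Vehicle libraries held 1.28, 4.62, 0.68 and 1.39 tags there and IL-33 libraries 23.5, 14.2, 13.8 and 24.6. The groups were well apart, with a mean 9.53 times higher in IL-33 and a log2 change of 2.78 (SE 0.34; adjusted p = 4.23e-14). A neighbouring peak 4.85 kb upstream rose from 5.41 ± 3.51 to 10.9 ± 2.33 tags (adjusted p = 0.0175). The 5 distal peaks of Tnfsf9 together held 29.8, 34.9, 22.1 and 31.7 tags in vehicle and 69.1, 47.7, 43.6 and 76.7 in IL-33. Among these 5 is the peak 6.9 kb upstream, whose means were 1.99 tags in vehicle and 19.0 in IL-33. The means of the sum were 29.6 and 59.3 tags, so the sum is not separate from that peak. The sum was the 1 raised distal sum of 23 tested, against 3.24% of all genes tested, and 0 fell, against 2.17%. The log2 change was 0.87 (SE 0.28; adjusted p = 0.0399), and the call was lost when any 1 library other than IL-33 library 2 was left out (adjusted p 0.0672 to 0.194). Its 2 promoter peaks went from 42.0 ± 9.29 to 59.0 ± 17.1 tags, which did not pass.

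Tnfsf14 encodes LIGHT, a ligand of Tnfrsf14 and of the lymphotoxin beta receptor. An intergenic peak 4.29 kb upstream, between Tnfsf14 and the complement gene C3 (chr17:57198315-57198619), held 2.17, 1.59, 4.22 and 3.91 tags in vehicle. It held 18.6, 10.1, 9.94 and 21.04 tags in IL-33. All IL-33 libraries exceeded all vehicle libraries, by a log2 change of 1.95 (SE 0.34; adjusted p = 3.93e-07). The Tnfsf14 promoter, whose sequence is given above, went from 77.9 ± 13.9 to 65.8 ± 24.2 tags and did not pass. Of the letters marked there, the C/EBP match lies in its promoter peak (chr17:57193973-57194269) and the AP-1 match outside it.

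Tnfsf18, the ligand of the T cell receptor Tnfrsf18, had 16 peaks. The intergenic one 12.3 kb upstream (chr1:161482236-161482569) held 7.42, 3.30, 5.59 and 2.79 tags in vehicle and 22.6, 14.4, 23.2 and 38.0 in IL-33. The groups did not overlap (log2 change 2.11, SE 0.34; adjusted p = 2.77e-08). A peak in its first intron, 2.82 kb into the gene, rose from 5.51 ± 0.77 to 19.96 ± 10.6 tags (adjusted p = 1.21e-04), again with groups apart.

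Tnfsf8, which encodes the ligand of CD30, moved in both directions. A weak intergenic peak 74.3 kb upstream (chr4:63935345-63935725) held 1.15, 1.45, 2.05 and 0.84 tags in vehicle and 12.2, 2.83, 3.57 and 10.4 in IL-33. IL-33 libraries 1 and 4 were high and libraries 2 and 3 just above vehicle (log2 change 1.56, SE 0.34; adjusted p = 9.46e-05). Its other called peaks, 4 intergenic ones 7.71 to 81.7 kb upstream, fell. The strongest of these in vehicle, 36.1 kb upstream (chr4:63897260-63897562), held 34.4, 34.1, 23.3 and 28.7 tags in vehicle and 18.5, 3.18, 17.3 and 24.6 in IL-33. IL-33 library 4 overlapped vehicle library 3, and library 2 was far below the rest. The log2 change was -1.12 (SE 0.34; adjusted p = 0.00981), but -0.55 without IL-33 library 2 (adjusted p = 0.16), and it was also lost without vehicle library 1 (adjusted p = 0.0601) or 2 (adjusted p = 0.0558).

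The other 6 ligands had no called peak. Tnfsf12 encodes TWEAK, the ligand of Tnfrsf12a. Its promoter peak held 90.7, 93.9, 63.3 and 90.4 tags in vehicle and 51.8, 25.9, 43.3 and 69.7 in IL-33, with an overlap between vehicle library 3 and IL-33 library 4. The log2 change of -0.82 (SE 0.26) did not pass as deposited (adjusted p = 0.102). It passed the test without IL-33 library 2 (adjusted p = 0.0345), without IL-33 library 4 (adjusted p = 0.0206) and with median-ratio scaling (adjusted p = 0.000336). It did not pass when any 1 of the other libraries was left out, or in edgeR on total tags (adjusted p = 0.262). Tnfsf12 shares its start site with the Tnfsfm13 model, which joins it to Tnfsf13, so the promoter cannot be given to one of them alone. Tnfsf10, which encodes the apoptosis-inducing ligand TRAIL, had 12 peaks summing to 284 ± 28.6 tags in vehicle and 234 ± 109 in IL-33. The sum for Tnfsf13, the B cell ligand APRIL, was 101 ± 25.4 and 86.4 ± 26.3 tags, and neither sum passed. Tnfsf4, Tnfsf11 and Tnfsf15, which encode the ligands OX40L, RANKL and TL1A, had 1 tested peak each and summed means of 6.62 to 20.3 tags. 

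Of the death domain receptors, Tnfrsf25, the receptor of Tnfsf15, had the 1 raised peak, at its promoter (chr4:152115900-152116141). It went from 3.28 ± 0.75 to 9.85 ± 4.23 tags with groups apart (log2 change 1.25, SE 0.34; adjusted p = 0.00317). Per length, it held 13.5 ± 3.10 tags per kb in vehicle and 40.7 ± 17.5 in IL-33, and of the promoters only that of Tnfsf15 was lower in vehicle (12.7 ± 4.35). The TNF receptor gene Tnfrsf1a had 13 tested peaks, Tnfrsf21, which encodes the death receptor DR6, 15 and Tnfrsf10b, the mouse TRAIL receptor gene, 4, and 0 of these were called. Their sums went from 170 ± 20.7 to 151 ± 42.3 tags for Tnfrsf1a, from 561 ± 76.1 to 480 ± 201 for Tnfrsf21 and from 27.4 ± 4.46 to 25.6 ± 6.80 for Tnfrsf10b.

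Tnfrsf1b, which encodes the second TNF receptor, TNFR2, held 8 of the 23 raised peaks. The one with the smallest p, 11.4 kb upstream (chr4:145258112-145258425), lay in the RefSeq span of the non-coding RNA gene Gm36233. Vehicle libraries held 2.69, 1.72, 2.39 and 2.65 tags and IL-33 libraries 28.6, 17.1, 16.2 and 37.3. No library of one group came near the other, and the log2 change was 2.81 (SE 0.34; adjusted p = 1.91e-14), a mean 10.5 times higher. The vehicle mean of this peak lay below the filter, so the peak was tested only because of its IL-33 values. The raised peaks with most tags lay 21 kb upstream, from 21.1 ± 3.01 to 102 ± 34.7, and 7.68 kb upstream, from 28.7 ± 7.11 to 106 ± 29.4, both with groups apart.

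Most raised sites of this locus lay upstream of the start site. In the stretch 5 to 40 kb before the Tnfrsf1b start, which runs into the neighbouring receptor gene Tnfrsf8, 8 of 12 tested peaks rose and 0 fell. Of all distal peaks tested, 9.7% rose and 5.7% fell. The raised peaks of this stretch other than those 21 and 7.68 kb upstream had vehicle means below the filter. They were tested only because of their IL-33 values. The 14 peaks of this stretch summed to 236, 236, 178 and 223 tags in vehicle and to 558, 336, 421 and 662 in IL-33, without overlap. Within 5 kb of the start, 0 of 4 tested peaks were called, and the sum was 118 ± 17.1 tags in vehicle and 115 ± 33.5 in IL-33. In the stretch 5 to 40 kb after the start, 1 of 14 rose and 1 fell, and the sum was 688 ± 99.2 and 600 ± 198 tags. These stretches were chosen after the values were seen, and their counts are a description with no test. The lowered peak, in the first intron 7.36 kb into the gene (chr4:145239375-145239641), held 97.2, 103, 62.9 and 88.3 tags in vehicle and 47.4, 21.3, 32.1 and 57.3 in IL-33. Groups were apart, narrowly between vehicle library 3 and IL-33 library 4 (log2 change -1.20, SE 0.34; adjusted p = 0.00505). The promoter, printed above, went from 60.4 ± 10.6 to 51.0 ± 17.7 tags and did not pass.

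**Figure D2:**
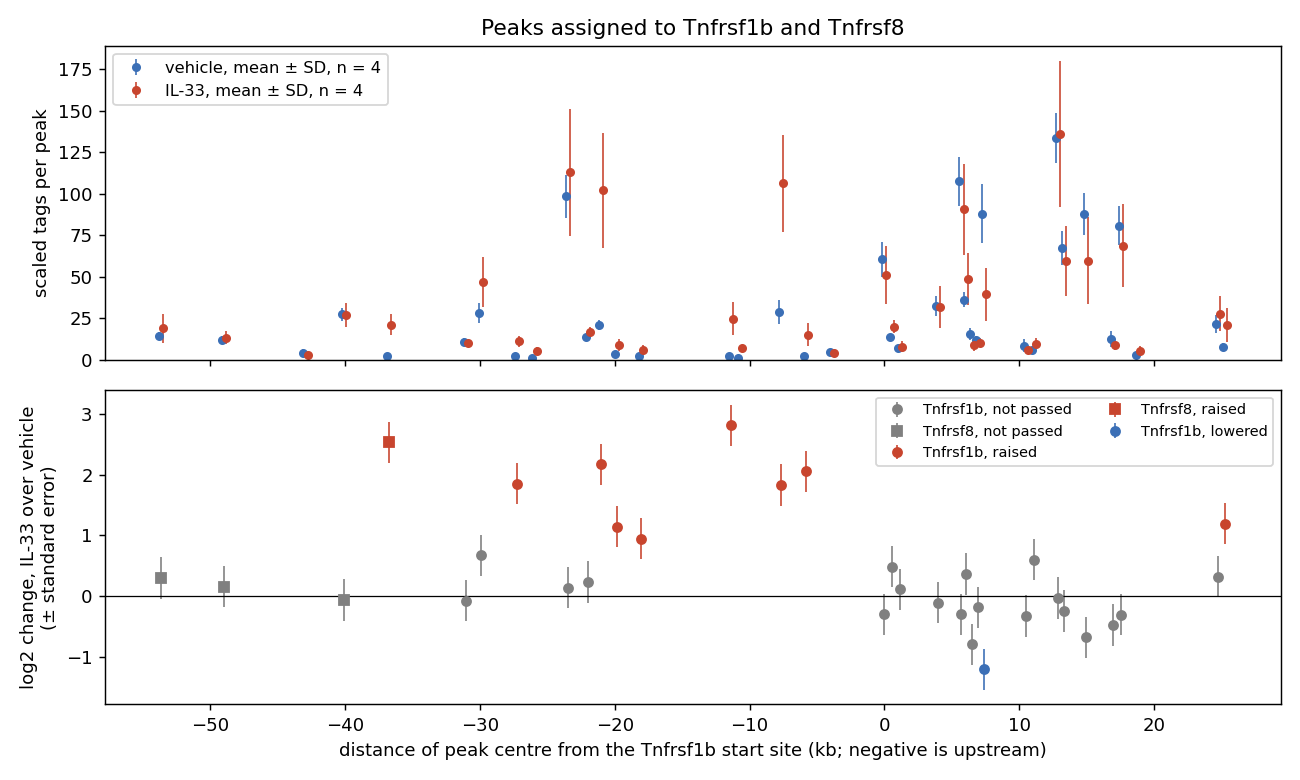
Peaks assigned to Tnfrsf1b and Tnfrsf8 by distance from the Tnfrsf1b start site (x axis, kb, negative upstream). The upper panel gives mean scaled tags with SD (n = 4) and the lower panel the log2 change with its standard error (0.34) for tested peaks; 8 raised peaks lie 5 to 40 kb upstream, and 1 raised and 1 lowered peak lie downstream.

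Tnfrsf8, which encodes CD30, had its 1 raised peak in this upstream stretch. This intronic site (chr4:145283478-145283731) lies 31.5 kb into Tnfrsf8 and 36.7 kb before the Tnfrsf1b start. It held 2.43, 2.77, 2.39 and 2.79 tags in vehicle and 26.6, 15.6, 15.8 and 26.5 in IL-33. The vehicle libraries were close together and all IL-33 libraries were far above them (log2 change 2.53, SE 0.34; adjusted p = 9.42e-12). Because a peak is given to the nearest start site, the raised peak 27.2 kb before the Tnfrsf1b start is counted under Tnfrsf1b although it lies in the last intron of Tnfrsf8.

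Tnfrsf11a, which encodes RANK, the receptor that drives osteoclast formation, had 3 raised and 2 lowered peaks of 27 tested. The leading raised one, 32.2 kb upstream in an intron of the gene Relch (chr1:105748361-105748661), held 1.66, 2.64, 1.82 and 2.37 tags in vehicle and 17.0, 9.55, 8.66 and 25.7 in IL-33. The groups did not overlap (log2 change 2.21, SE 0.34; adjusted p = 4.78e-09). In its own first intron, 9.61 kb into the gene, a peak rose from 29.6 ± 5.37 to 67.6 ± 25.5 tags (adjusted p = 0.0124). The leading lowered one was intergenic, 84.9 kb from the start (chr1:105865532-105865759). It held 9.34, 10.6, 7.64 and 12.7 tags in vehicle and 8.41, 1.06, 1.27 and 5.07 in IL-33. IL-33 library 1 overlapped the vehicle libraries, and libraries 2 and 3 were near 1 tag (log2 change -1.39, SE 0.34; adjusted p = 7.44e-04). The IL-33 mean of this peak, 3.95 tags, lay below the filter, so the peak was tested only because of its vehicle values.

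Tnfrsf17, which encodes BCMA, a receptor of plasma cells for BAFF and APRIL, had a lowered peak in its last intron, 1.58 kb into the gene (chr16:11315203-11315572). Vehicle libraries held 43.4, 41.6, 25.4 and 42.0 tags and IL-33 libraries 13.3, 6.96, 17.1 and 19.9. Groups were apart, with vehicle library 3 well below the other vehicle libraries (log2 change -1.40, SE 0.34; adjusted p = 6.40e-04). Tnfrsf14, the receptor of Tnfsf14, had a raised peak in an intron 2.08 kb into the gene (5.75 ± 2.45 to 18.6 ± 7.37 tags, adjusted p = 1.11e-04). It also had a lowered one 12.6 kb from the start (34.8 ± 3.80 to 17.7 ± 6.69 tags, adjusted p = 0.0261). Both had groups apart.

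The other TRAF-binding receptors had no called peak: Tnfrsf9, Tnfrsf12a, Tnfrsf13b, Tnfrsf13c, Tnfrsf18 and Tnfrsf19. Tnfrsf12a, the TWEAK receptor gene, summed to 102 ± 13.1 tags in vehicle and 104 ± 30.1 in IL-33. The BAFF receptor gene Tnfrsf13c summed to 57.5 ± 13.8 and 38.9 ± 6.46, and Tnfrsf13b, which encodes TACI, to 143 ± 30.2 and 110 ± 31.1. The sum for Tnfrsf18 was 48.7 ± 8.33 and 34.0 ± 9.26. Tnfrsf9 and Tnfrsf19, the latter encoding TROY, had 1 peak each, with means of 3.91 to 7.43 tags. Among the decoys, Tnfrsf22 had only its promoter peak, 67.3 ± 10.9 and 55.6 ± 22.2 tags, and Tnfrsf23 summed to 135 ± 13.3 and 104 ± 36.5, and neither passed.

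Set side by side, ligands and their receptors did not show one pattern. Tnfsf9, Tnfsf13b and Tnfsf18 each had raised and no lowered peaks, while Tnfrsf9, Tnfrsf18, Tnfrsf13b and Tnfrsf13c had none called and Tnfrsf17 had 1 lowered. Tnfsf14 and Tnfrsf14 each had 1 raised peak, and Tnfrsf14 also had 1 lowered. Tnfsf8 had 1 raised and 4 lowered peaks and Tnfrsf8 1 raised. Tnfsf11 had none called and Tnfrsf11a had 3 raised and 2 lowered, Tnfsf15 had none and Tnfrsf25 1 raised, and Tnfsf12 and Tnfrsf12a had none. Numbers of tested peaks differ widely between genes, from 1 to 29, so these counts do not compare the genes with each other, and pairs were not tested against one another.

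Among the 27 peaks below the filter were sites nearly closed in vehicle. With no filter, 29 of the 222 rose (9.83% of the whole table did) and 10 fell (5.02%). The raised ones among the 27 were 6, assigned to Tnfsf4, Tnfsf9, Tnfsf18, Tnfrsf14 and, with 2, Tnfrsf1b. A Tnfsf4 peak 44.3 kb upstream held 0, 0.66, 0.57 and 0.14 tags in vehicle and 7.65, 5.78, 2.93 and 8.49 in IL-33. It was the only changed site of this OX40L gene, and its groups were apart (adjusted p = 3.33e-09 with no filter). One Tnfrsf1b peak, 10.7 kb upstream and within 1 kb of the leading raised peak, went from 0.84 ± 0.52 to 7.36 ± 1.78 tags, and the other, 25.9 kb upstream, from 1.15 ± 0.67 to 5.38 ± 2.24. The Tnfrsf14 peak, 4.92 kb upstream, went from 0.68 ± 0.54 to 6.42 ± 2.84, and the Tnfsf9 peak, 7.28 kb upstream, from 1.46 ± 0.75 to 5.21 ± 1.71. Peaks this weak can pass only through the group where they are high, and the authors listed all 6 under IL-33 alone.

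Promoter and distal change of the same gene could be compared for 14 genes, as the difference of their log2 sums within each library. The distal change exceeded the promoter change for 5 genes, and the reverse held for Tnfsf13b, where 25.6% and 7.03% of all genes tested passed in these directions. For Tnfsf14 the 2 distal peaks held 11.6, 8.59, 9.58 and 8.51 tags in vehicle and 25.8, 13.9, 16.7 and 31.7 in IL-33, apart throughout, against a promoter that did not pass. One of these 2 peaks is that 4.29 kb upstream, with means of 2.97 tags in vehicle and 14.9 in IL-33. It was listed under IL-33 alone and had a vehicle mean below the filter, so the sum is not separate from that peak. For Tnfsf14 the difference of log2 changes was 1.12 (SE 0.15; adjusted p = 1.97e-04). The differences were 0.70 (SE 0.15; adjusted p = 0.00301) for Tnfsf18, 0.47 (SE 0.10; adjusted p = 0.00344) for Tnfrsf1b, 0.44 (SE 0.11; adjusted p = 0.00675) for Tnfsf9 and 0.41 (SE 0.10; adjusted p = 0.00572) for Tnfrsf11a. For Tnfsf13b, the promoter moved more, with a difference of -0.41 (SE 0.14; adjusted p = 0.0437). This last call was lost in 5 of 8 fits without 1 library, namely without vehicle libraries 1 or 4 or IL-33 libraries 1, 2 or 3 (adjusted p 0.0621 to 0.129). Other scalings were not run for this difference. One factor per library cancels between the 2 sums only in part, because 5 is added to each, and quantile normalization is not one factor. How far the differences depend on the scaling was therefore not tested.

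**Figure D3:**
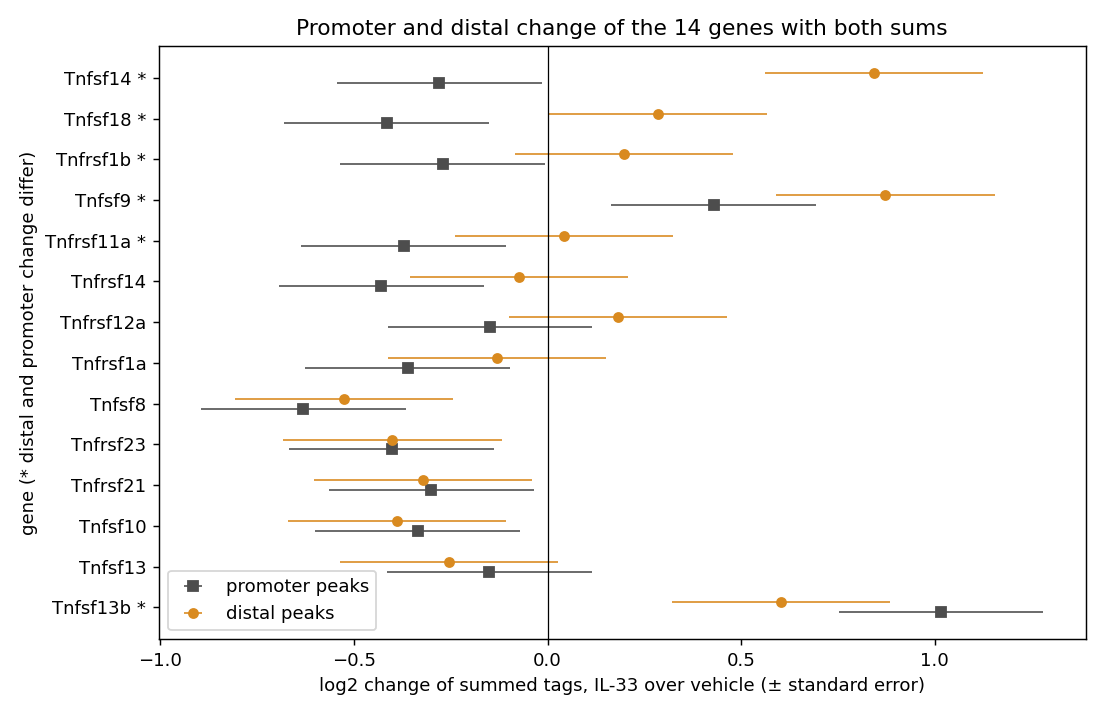
Log2 change of summed tags, IL-33 over vehicle, with standard errors, for promoter peaks (squares) and distal peaks (circles) of the 14 genes with both sums (y axis, ordered by the difference). Stars mark the 6 genes whose 2 changes differ; Tnfsf14 stands at the top with a difference of 1.12, and Tnfsf13b at the bottom with -0.41.

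Summed over all peaks of a gene, 0 of 24 genes tested rose and 0 fell in limma, where 1.46% of all genes rose and 1.23% fell. At an unadjusted p under 0.05, 2 of the 24 were higher and 3 lower with IL-33, where 1622 of all 16386 genes tested (9.9%) had such a p in either direction. With edgeR on total tags the test also called 0 in each direction. This result depended on the scaling. The median log2 change of all gene sums was -0.17 as deposited, -0.07 with median-ratio scaling and -0.03 with quantile normalization. With median-ratio scaling 6 genes rose, Tnfsf9, Tnfsf13b, Tnfsf18, Tnfrsf1b, Tnfrsf8 and Tnfrsf25, where 11.8% of all genes rose. Under that scaling 5 fell, Tnfsf8, Tnfsf12, Tnfrsf17, Tnfrsf18 and Tnfrsf23, where 15.6% of all fell. The same genes were called, in the same directions, with equal column sums, edgeR TMM (15% and 11.5% of all genes) and DESeq2. For Tnfsf12 the log2 change of the gene sum was -0.79 as deposited (adjusted p = 0.123), -0.69 with median-ratio scaling and -0.63 with quantile normalization. For Tnfsf9 it was 0.67 as deposited (adjusted p = 0.273) and 0.77 with median-ratio scaling. Leaving out IL-33 library 2 alone, the library with the lowest share of tags in peaks, gave 3 raised (Tnfsf9, Tnfsf13b and Tnfrsf25) and 1 lowered (Tnfsf12), where 7.13% of all genes rose and 2% fell.

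Levels can be compared between genes only per length. Per kb of peak, summed over all peaks of a gene, the highest level in vehicle was that of Tnfrsf22 at 302 ± 48.8 tags per kb, from its promoter peak alone. Tnfsf12 followed at 187 ± 29.8, Tnfrsf23 at 141 ± 13.95 and Tnfrsf21 at 134 ± 18.2, and the last 2 did not differ beyond their SDs. The lowest were Tnfrsf9 at 13.4 ± 5.01, Tnfsf15 at 13.8 ± 4.44 and Tnfrsf25 at 16.1 ± 1.502, which also lay within their SDs of each other. Among promoters the highest was Tnfrsf21 at 526 ± 54.8 tags per kb. Tnfsf12 at 317 ± 53.5, Tnfrsf22 at 302 ± 48.8, Tnfrsf1b at 285 ± 49.8 and Tnfsf14 at 262 ± 46.9 came next and did not differ beyond their SDs from the neighbour in this order. With IL-33 the Tnfsf13b promoter went from 197 ± 38.1 to 432 ± 147 tags per kb, and that of Tnfrsf21 was 439 ± 139.

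**Figure D4:**
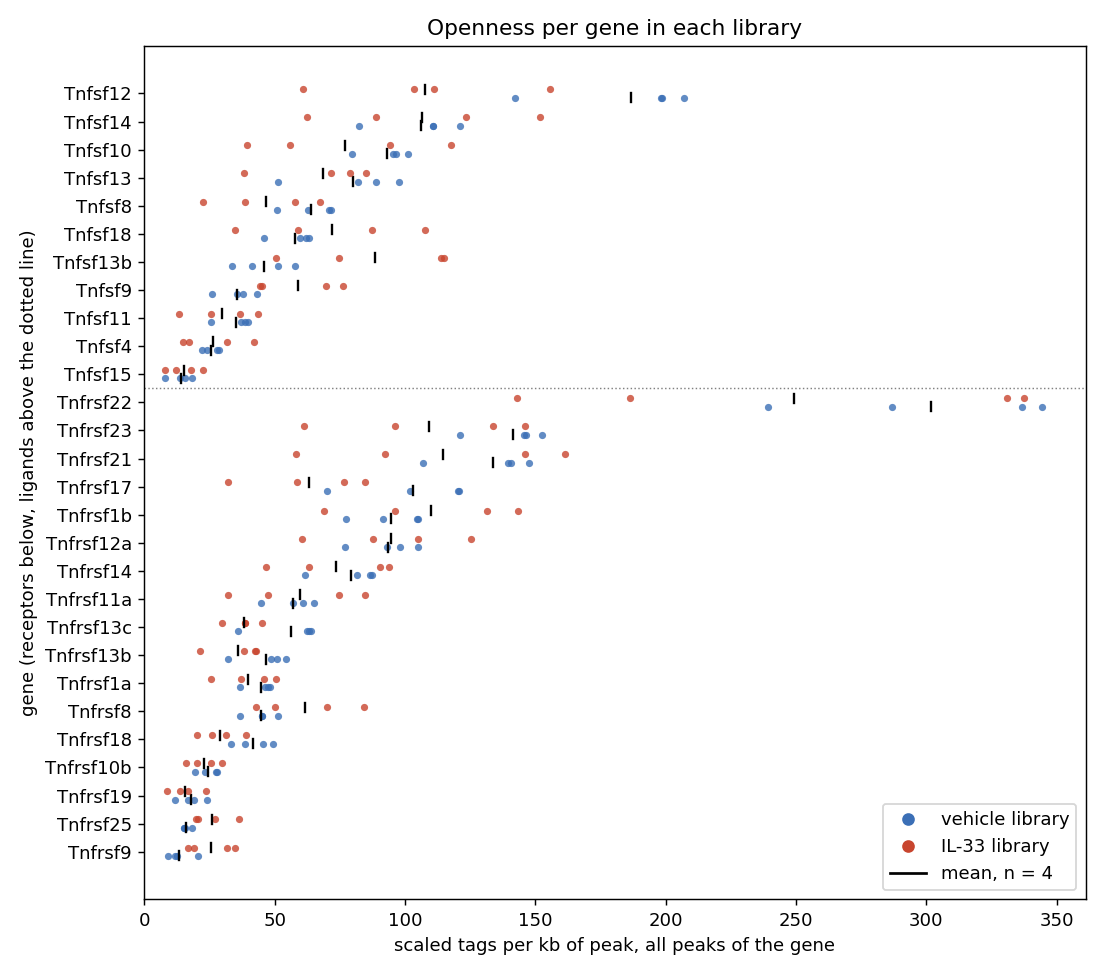
Scaled tags per kb of peak (x axis) summed over all peaks of each gene (y axis; ligands above the dotted line, receptors below), with 1 point per library and bars at the means of 4. Tnfrsf22 is highest in vehicle at 302 tags per kb and Tnfrsf9 lowest at 13.4. Tnfsf9 and Tnfrsf25 are the genes whose IL-33 libraries all lie above the vehicle libraries, but neither sum passed the test. The share of all genes with groups apart in this way was not computed.

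Superfamily genes with other names, a list of 15 that includes Tnf, the lymphotoxin genes and Cd40, had 13 genes tested in summed tags, of which 3 rose and none fell. Over all genes tested in summed tags, 1.46% rose and 1.23% fell. Tnf itself held 62.7, 75.3, 40.9 and 73.5 tags in vehicle and 179, 116, 159 and 192 in IL-33 (log2 change 1.3, SE 0.28; adjusted p = 4.52e-04). Lta, its neighbour, which encodes lymphotoxin alpha, went from 105 ± 23.6 to 294 ± 67.5 tags (adjusted p = 6.56e-05). Cd40, the costimulatory receptor gene of antigen-presenting cells, went from 21.4 ± 3.77 to 56.7 ± 13.0 (adjusted p = 0.00145). Groups were apart at all 3. Of 57 tested peaks of this list 16 rose (28.1%) and 0 fell. The raised peaks belonged to 5 of the 15 genes, with 7 at Lta and 4 at its neighbour Tnf. Of 20 genes for signalling below the receptors, such as TRAF adaptors, caspase regulators and NF-kB kinases, 1 rose in summed tags and 0 fell. It was Birc3, which encodes an inhibitor of apoptosis bound by TRAF proteins, with 194 ± 14.5 tags in vehicle and 424 ± 135 in IL-33 (log2 change 1.05, SE 0.28; adjusted p = 0.0104). Of 257 tested peaks of the signalling genes 59 rose (22.96%) and 2 fell (0.778%). Of the 20 genes, 15 had a raised peak, with 18 of these peaks at Tnfaip3 and 12 at Cflar. These shares are given beside the 8.53% and 4.99% of all peaks tested, and the lists were not tested against each other.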

How the data were processed

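ATAC-seq libraries of 8 mice, 4 per treatment, were read from one table of 104981 peaks. The values are a signal that the authors made by counting tags over whole peaks with HOMER annotatePeaks, scaled to 10000000 tags per library and with at most 3 tags per position, per the file headers, on mm10. Bowtie2, HOMER and DESeq2 are named, without versions, in the submitters' processing notes. How reads were trimmed, deduplicated and shifted for the transposase is not given in the sources used here.

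Columns of the table name the treatment but not the mouse, so sex could not be attached to a column, replicate numbers are those of the columns, and 0 other columns of sample values were left aside. Each mouse is 1 library per the labels. A gene's promoter peaks are those the authors annotated promoter-TSS, and distal peaks are all others; a peak went to the gene with the closest start. Peak levels entered tests as log2(tags + 1.15), where 1.15 is 10% of 11.5, the median of the peak means, and sums as log2(sum + 5). Such fold changes understate those of weak peaks. The lowest 10% of means were left out. The treatments were compared in limma 3.58.1 under R 4.3.3 (two-sided, Benjamini-Hochberg over all features of the whole table, threshold 0.05). limma gave every peak and sum one common spread (not the distal minus promoter differences), so standard errors are 0.34 for peaks, 0.28 for gene sums, 0.26 for promoter sums and 0.28 for distal sums, and very small p-values rest on that shared spread.

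All values (100%) were whole multiples of the worth of 1 read within 0.006 tags, so edgeR 4.0.16 (quasi-likelihood, TMM or total tags) and DESeq2 1.42.0 were run on the recovered reads as alternatives. The floor of 3 reads was 0.342 to 0.418 tags and covers counting error only. The other alternatives were pseudocounts 4 times smaller and larger, no filter, 4 other treatments of scale or spread, libraries left out in turn, and other limits of promoter and distal. The scripts were tested on simulated data.

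Values in every library are given for the peak with the smallest p of each gene with a called peak (up to 8 raised and 4 lowered, in order of p), for sums that passed and for the gene sum with the smallest p. Other peaks and sums with values per library, namely Tnfsf12, Tnfsf14 distal, Tnf, Tnfsf4 and the Tnfrsf1b stretches, were picked with their values in view. The members and lists were chosen with earlier results of these data known. Tnfrsf4, Tnfrsf11b and Tnfrsf26 were not analysed here. Promoter windows are from RefSeq (GRCm38.p6). One marker gene is not reported here.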

Additional observations from a re-analysis of the deposited data

Results flagged for a closer look

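Dixon's rule for 4 values was applied to 150 groups of libraries, each 1 treatment at 1 named peak or summed gene, and 9 had a library whose gap to the rest exceeded the rule's critical share of the group's range. Chance flags about 1 in 20 groups. In 8 of the 9, vehicle library 3 was low. Its values were 25.42 tags at the Tnfrsf17 peak 1.58 kb into the gene (others 41.61 to 43.36), 36.83 for the Tnfrsf13c sum (63.61 to 65.13) and 67.15 for the Tnfsf12 sum (93.61 to 97.76). For promoter sums they were 58.03 for Tnfrsf11a (80.48 to 84.04) and 63.27 for Tnfsf12 (90.4 to 93.93). For distal sums they were 32.38 for Tnfrsf13c (53.34 to 55.94), 344.54 for Tnfrsf21 (462.71 to 486.43) and 209.42 for Tnfsf10 (257.37 to 265.95). The sums of one gene share peaks, so these are not separate observations. This library had 20.8% of its tags in peaks, the lowest share in the vehicle group, and the part of that share in these values was not tested. The ninth was the Tnfrsf25 sum, 13.47 tags in vehicle library 2, above 11.16 to 11.39 in the others.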

How the results depend on the processing

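No paired analysis was possible because the columns carry no mouse number and the labels number the mice of the treatments apart. Of 21 single results (named peaks, sums and differences), 16 kept their direction and their side of the threshold under every alternative run for them, and 0 reversed. For the differences, these alternatives did not include other scalings. The exceptions were the Tnfsf13b promoter sum (lost in 6 of 20), the Tnfsf9 distal sum (lost in 8 of 21, once with the larger pseudocount at an adjusted p of 0.0898), the Tnfsf8 peak 36.1 kb upstream (lost in 4 of 19, once in edgeR on total tags at 0.0845), the Tnfsf13b difference (lost in 6 of 10) and the Tnfsf13b gene sum, which passed in 7 of 19.

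Counts depended on the scale. Raised peaks, 23 as deposited, were 35 with equal column sums, 38 with edgeR TMM and 40 with DESeq2, and 18 to 31 with 1 library left out. Of all 94480 peaks tested, 14744, 15969 and 16542 rose under these scalings, and 6306 to 13871 with 1 library left out. Lowered peaks, 9 as deposited, were 29 with median-ratio scaling, 28 with equal column sums, 35 with quantile normalization, 30 with edgeR TMM, 35 with DESeq2, 5 with edgeR on total tags and 3 to 20 with 1 library left out. Of all peaks tested, 10214, 9824, 12211, 11521, 12405 and 3483 fell in the same order, and 2472 to 7894 with 1 library left out. Gene sums raised were 6 with median-ratio scaling, equal column sums, quantile normalization, edgeR TMM and DESeq2 alike, and 0 to 3 with 1 library left out. Gene sums lowered were 5, 5, 6, 5 and 5 in the same order, and 0 to 2. Of all 16386 gene sums tested, 1932, 2031, 2148, 2454 and 2738 rose in that order, and 140 to 1169 with 1 library left out. Those that fell numbered 2554, 2412, 2119, 1886 and 2167, and 60 to 504. Promoter sums raised were 2, 2, 2, 2 and 2, and 0 to 1, and lowered 3, 3, 2, 2 and 3, and 0 to 1. Of all 10886 promoter sums tested, 431, 439, 574, 667 and 883 rose, and 57 to 306. Those that fell numbered 1297, 1133, 433, 450 and 754, and 21 to 135. Distal sums raised were 6, 6, 6, 6 and 6, and 0 to 4, and lowered 5, 5, 6, 7 and 7, and 0 to 1. Of all 14404 distal sums tested, 2585, 2703, 2461, 2876 and 2937 rose, and 257 to 1817. Those that fell numbered 2207, 2115, 2564, 2308 and 2525, and 104 to 804. Distal sums raised were also 2 with the smaller pseudocount, 0 with the larger, and 2 with each of no filter, limma trend, edgeR on total tags, introns and intergenic peaks only, and distal peaks within 100 kb. Over the whole table, 489 and 198 distal sums rose with these pseudocounts, and 480 to 543 of 13555 to 16005 under the others. Differences with a higher distal change were 5 to 6, and those lower 0 with the smaller pseudocount and 0 to 1 with 1 library left out. Of all 8360 differences tested, 1746 to 2121 were higher. Those lower numbered 581 with the smaller pseudocount and 425 to 626 with 1 library left out.

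Median-ratio scaling without IL-33 library 2 was chosen after seeing the data. It gave 33 raised and 23 lowered peaks, 6 and 6 gene sums, 2 and 5 promoter sums, and 6 and 5 distal sums. Over the whole table these were 13609 and 9333 peaks, 2003 and 2449 gene sums, 409 and 1156 promoter sums, and 2661 and 2081 distal sums. The cause of these shifts was not tested. In all, 94 counts under alternatives stayed within 1.5 times the count as deposited and 84 did not. At a standard error of 0.28 to 0.34 on the log2 scale, small changes could not be detected.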
